A study of Mus musculus with 15 samples.

Results

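Interferon regulatory factors are transcription factors, and 5 genes of the family, Irf1, Irf3, Irf4, Irf5 and Irf8, were followed in sorted mouse microglia after a contusion of the cortex. They were chosen by their names among the 547 endogenous genes of an nCounter panel of immune genes, which holds 6 Irf genes; the remaining one is not described here. Male C57BL6J mice, aged 3 months by the methods and 2 months by another passage of the same source, received either a sham procedure or a controlled cortical impact (CCI), a piston injury to the exposed brain. There were 4 sham samples, 4 samples at 2 days post-injury (dpi), 4 at 14 dpi and 3 at 60 dpi. A single set of sham samples served as the baseline for every time point, so age and time since the operation were not matched at the later ones. Cells were dissociated from the brain and sorted as CD11b high and CD45 low to intermediate, a gate for microglia that is set on surface proteins and not on lineage. Nothing in the labels ties a sample to a mouse, so the p-values reflect only how these samples vary, which may be technical. Because each sample is a bulk of sorted cells, fewer cells of a type and less RNA per cell cannot be told apart.

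Interferon regulatory factors share a DNA-binding domain with a row of conserved tryptophans that reads GAAA repeats in interferon-stimulated response elements. Irf3 and Irf5 are made ready in the cytoplasm and are activated by kinases below Toll-like receptors and nucleic acid sensors, whereas Irf1 is itself induced by interferon gamma through STAT proteins. Irf8 is a lineage factor of macrophages and microglia that works with PU.1, and Irf4, its closest relative, is best known from lymphocytes, dendritic cells and alternatively activated macrophages.

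The promoters of the 4 genes with a called change against sham are shown because Irf1 and Irf8, which moved in opposite directions at different times, both hold a STAT-type inverted repeat there, and the windows of Irf5 and Irf3 do not. Each is the RefSeq window from 250 bases before to the first 50 bases of the transcript, on the plus strand of GRCm38.p6, and capitals mark matches of TTCNNNGAA. The windows are chr11:53769764-53770063 for Irf1, chr8:120736108-120736407 for Irf8, chr6:29526375-29526674 for Irf5 and chr7:44997398-44997697 for Irf3.

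Irf1: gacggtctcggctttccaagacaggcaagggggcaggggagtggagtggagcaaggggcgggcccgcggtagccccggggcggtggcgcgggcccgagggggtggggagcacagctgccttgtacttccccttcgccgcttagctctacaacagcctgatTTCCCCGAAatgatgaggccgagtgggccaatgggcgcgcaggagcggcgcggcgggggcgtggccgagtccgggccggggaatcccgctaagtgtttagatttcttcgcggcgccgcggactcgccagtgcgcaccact
Irf8: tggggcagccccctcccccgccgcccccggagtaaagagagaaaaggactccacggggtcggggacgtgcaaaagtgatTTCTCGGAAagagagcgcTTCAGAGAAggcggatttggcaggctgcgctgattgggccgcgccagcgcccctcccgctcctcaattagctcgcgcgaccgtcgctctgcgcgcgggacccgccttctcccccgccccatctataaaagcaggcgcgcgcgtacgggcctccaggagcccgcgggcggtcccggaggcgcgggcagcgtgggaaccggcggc
Irf5: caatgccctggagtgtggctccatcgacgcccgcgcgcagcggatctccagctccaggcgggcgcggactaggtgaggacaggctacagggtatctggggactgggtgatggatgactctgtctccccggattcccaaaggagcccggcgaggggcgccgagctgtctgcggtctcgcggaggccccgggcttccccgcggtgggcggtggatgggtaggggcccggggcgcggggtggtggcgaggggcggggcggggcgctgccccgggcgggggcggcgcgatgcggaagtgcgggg
Irf3: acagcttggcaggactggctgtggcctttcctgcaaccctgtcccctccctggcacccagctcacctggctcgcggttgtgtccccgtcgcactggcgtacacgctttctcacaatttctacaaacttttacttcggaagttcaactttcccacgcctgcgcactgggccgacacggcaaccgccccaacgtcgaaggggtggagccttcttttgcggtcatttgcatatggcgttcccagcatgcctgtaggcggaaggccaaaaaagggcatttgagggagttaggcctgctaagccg

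The Irf1 match, TTCCCCGAA, lies 90 to 82 bases before the start. In Irf8 there are 2 matches, TTCTCGGAA at 171 to 163 and TTCAGAGAA at 153 to 145 bases before the start. The motif was searched on both strands, reads the same on either, and was present in 8.3% of 32851 mouse promoter windows of this length. Counted by gene, 9.55% of 27025 genes held it in a window. A core of the interferon-stimulated response element, a pair of GAAA repeats with any 2 bases between, was searched on both strands as well and found in 3.44% of those windows and in none of the windows of the 5 genes. The Irf5 window belongs to a start inside the annotated gene, which begins at chr6:29526130, and the sequence before that outer start was not searched. Irf4 held neither motif, and neither did a second annotated start of Irf1 or of Irf8. A match of letters is a description of the sequence, and binding was not measured.

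Every group carried the markers of the sorted population. All 9 microglia and macrophage markers on the panel, among them Cx3cr1, Csf1r, Trem2 and C1qa, had a sample or more above background in every group. Their summed normalized count was 29764 to 40312 in sham samples and 21786 to 28562 at 2 dpi, with 7 of 9 lower in the edgeR test at 2 dpi, or 4 of 9 with TMM factors. Endogenous totals ran from 66905 to 280528 counts per sample, and scaling factors from 0.511 to 1.87. The 60 dpi samples were read in an nCounter run of their own, with a background limit of 57.1 to 67.7 counts per probe against 25 to 34 in the run that held the other 3 groups, so run and time point cannot be told apart. Here the background limit is the mean plus 2 SD of 8 negative-control probes in that sample, and 359 genes above it in at least 3 samples were tested. The scaling moved the median of all tested genes, which at 2 dpi against sham was -0.30 on the log2 scale with control and housekeeping factors and -0.04 with TMM factors. With TMM the calls at 2 dpi were 47 higher and 43 lower in place of 26 and 101, at 14 dpi 68 and 65 in place of 77 and 15, and at 60 dpi 76 and 67 in place of 90 and 40. Values below are normalized counts, and tests are edgeR's quasi-likelihood test with Benjamini-Hochberg adjustment over the 359 genes.

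**Figure D1:**
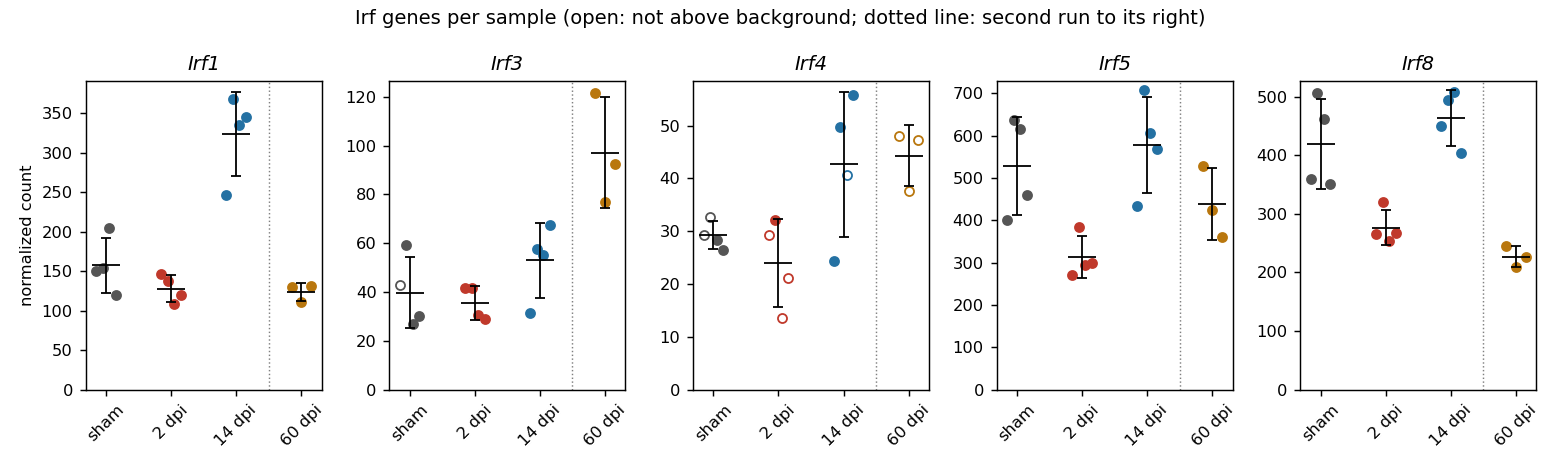
Normalized count (linear axis from 0) of each Irf gene in every sample, grouped as sham, 2, 14 and 60 dpi; bars are mean and SD, open circles are counts not above background, and the dotted line divides the nCounter runs. Irf1 peaks at 14 dpi, Irf5 and Irf8 sit below all sham samples at 2 dpi, Irf8 does so again at 60 dpi, and Irf3 lies above all sham samples at 60 dpi.

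Irf8, the lineage factor, was lower than in sham at 2 dpi and at 60 dpi. Sham samples had 360.3, 507, 462 and 350.2 normalized counts of Irf8. At 2 dpi Irf8 was at 265, 319.9, 254 and 266, so that all 4 samples lay under the lowest sham sample. At 14 dpi it was at 449, 495, 508 and 404, inside and just above the sham range. At 60 dpi Irf8 was at 245, 209 and 226, again below every sham sample. The group means were 419.8 ± 76.8 (SD, n = 4) in sham, 276 ± 29.5 (n = 4) at 2 dpi, 464 ± 47.4 (n = 4) at 14 dpi and 227 ± 18.0 (n = 3) at 60 dpi. Irf8 fell by 0.60 ± 0.15 (SE) on the log2 scale at 2 dpi, 1.52-fold, with an adjusted p of 0.00576. At 60 dpi the fall was 0.89 ± 0.17, 1.85-fold, adjusted p = 0.000411. At 14 dpi the difference was 0.14 ± 0.15 with a 95% interval from -0.15 to 0.44 and an adjusted p of 0.524. Ordered by mean, 14 dpi and sham did not differ beyond their spread, sham exceeded 2 dpi, and 2 dpi and 60 dpi were not told apart (adjusted p = 0.135), although TMM factors gave a fall of 0.68 between them with an adjusted p of 0.000378.

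Irf5, which acts below MyD88 in Toll-like receptor signalling and promotes inflammatory cytokines in macrophages, was called against sham at 2 dpi alone, where it was lower. Its sham samples read 401, 636, 616 and 459 normalized counts. At 2 dpi Irf5 was at 271, 384, 295 and 299, all under the lowest sham sample. At 14 dpi it was at 433, 707, 606 and 568, and at 60 dpi at 529, 425 and 360.4, and both groups overlapped sham. Means were 528 ± 115.9 in sham, 312 ± 49.4 at 2 dpi, 578 ± 113 at 14 dpi (SD, n = 4 each) and 438 ± 85.2 (n = 3) at 60 dpi. At 2 dpi Irf5 fell by 0.76 ± 0.19 on the log2 scale, 1.69-fold, adjusted p = 0.00598. The differences from sham were 0.13 ± 0.19 at 14 dpi (adjusted p = 0.676) and -0.27 ± 0.20 at 60 dpi (adjusted p = 0.321, 95% interval from -0.67 to 0.13). With DESeq2 and its own size factors the 60 dpi difference became -0.44 with an adjusted p of 0.035.

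Irf8 and Irf5 were thus the 2 of 5 Irf genes called at 2 dpi, and both were lower. The background is high, since 35.4% of the 359 tested genes were called in that comparison and 28.1% were called lower, and groups failed to overlap in the lower direction for 24.2%. Both falls passed the test with TMM factors, at -0.49 for Irf5 (adjusted p = 0.0213) and -0.34 for Irf8 (adjusted p = 0.0409), and in every fit that left out a single sample of either group. With positive-control factors alone, which leave differences in RNA input between samples in place, neither was called (adjusted p = 0.657 and 0.834). The microglia markers fell at the same time point, and 4 of 7 tested monocyte markers, Cd44, Cfp, Fn1 and Tgfbi, were higher. The monocyte list had a summed normalized count of 1219 to 1553 against 530.4 to 736 in sham. Neutrophil markers summed to 666 to 9595 at 2 dpi and 232 to 8523 in sham, and none of the 5 tested was called. The part of these markers in the Irf values was not tested.

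Irf1, the interferon-induced member that drives antigen-processing genes, was raised at 14 dpi. In sham it was at 151, 154, 204 and 119.9 normalized counts. At 2 dpi Irf1 read 146, 137, 108 and 120.3, and at 60 dpi 130.1, 110.4 and 131, both overlapping sham. At 14 dpi it read 246, 368, 335 and 345, so that the lowest of these samples was above the highest sham sample. Means were 157 ± 34.9 in sham, 128 ± 17.1 at 2 dpi, 324 ± 53.5 at 14 dpi (SD, n = 4 each) and 124 ± 11.6 (n = 3) at 60 dpi. Irf1 rose by 1.03 ± 0.17 on the log2 scale at 14 dpi, 2.04-fold, adjusted p = 0.000203. It was the 1 of 5 Irf genes called at 14 dpi, where 25.6% of all tested genes were called and 21.4% were called higher, and where 16.7% lay without overlap above sham. Leaving out any sample of either group gave 0.91 to 1.20, and TMM factors 0.84 with an adjusted p of 0.000205, while positive-control factors alone gave 0.74 and no call (adjusted p = 0.422). The differences from sham were -0.31 ± 0.17 at 2 dpi (adjusted p = 0.162) and -0.35 ± 0.19 at 60 dpi (adjusted p = 0.149). The 60 dpi value passed with TMM factors, at -0.49 (adjusted p = 0.0169). With the main factors sham, 2 dpi and 60 dpi were not ordered beyond their spread. At 14 dpi 2 of 9 microglia markers were higher and none lower, a split of 1 and 3 with TMM factors, and their sum, at 35345 to 39605, lay inside the sham range. Of 7 tested monocyte markers 1 was higher. Of 5 dendritic cell markers 2 were tested, Itgax and Batf3. Itgax, which encodes CD11c, rose by 2.76 ± 0.26 (adjusted p = 7.74e-07) from a mean of 35.3 to 232 normalized counts. Batf3 was not called, and with TMM factors the split was 1 higher and 1 lower. Xcr1 and Cd209g were not above background. The summed list, Itgax included, was at 279 to 426 against 149 to 269.7 in sham. The part of these markers in the Irf1 value was not tested.

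Irf3, the factor that switches on interferon beta after nucleic acid sensing, was the member with a rise at 60 dpi, from a level close to background. Raw counts of Irf3 were 22, 38, 50 and 41 in sham, and 14 of the 15 samples exceeded their background limit, the exception being the sham sample with 22. In normalized counts the sham samples were at 43.1, 59.2, 26.7 and 30.2. At 2 dpi Irf3 was at 41.5, 41.8, 30.4 and 28.9, and at 14 dpi at 31.3, 57.5, 55.4 and 67.6, overlapping sham each time. At 60 dpi it was at 121.6, 76.9 and 92.6, all above the highest sham sample, from raw counts of 114, 94 and 104. Means were 39.8 ± 14.7 in sham, 35.7 ± 6.95 at 2 dpi, 52.9 ± 15.4 at 14 dpi (SD, n = 4 each) and 97.0 ± 22.7 (n = 3) at 60 dpi. Irf3 rose by 1.33 ± 0.31 on the log2 scale at 60 dpi, 2.52-fold, adjusted p = 0.00259. The differences were -0.12 ± 0.30 at 2 dpi (adjusted p = 0.771) and 0.44 ± 0.30 at 14 dpi (adjusted p = 0.319).

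The raised background of the 60 dpi run bears on Irf3 directly. Negative-control means were 23.9 to 27.5 counts in that run and 11.8 to 15.5 in the other, and the 188 genes too low to test had medians of 16 to 19 and 9 to 13 counts. The control NEG_B alone stood at 50 to 72 counts in that run and at 7 to 12 in the other. With the negative-control mean subtracted Irf3 rose by 1.68 (adjusted p = 0.00145), and with NEG_B left out of that mean by 1.85 (adjusted p = 0.000719). Irf3 was called at 60 dpi under all 21 alternatives, with 1.12 as the smallest log2 change. None of these alternatives separates the run from the time point, because the 60 dpi samples alone were in that run. Subtracting a mean of controls also cannot remove a rise that is particular to a probe, such as that of NEG_B. Irf3 and Irf8 were the members called at 60 dpi, 2 of 5, beside 36.2% of all tested genes, with 25.1% called higher and 11.1% lower, and with 23.7% and 11.7% lying wholly above or below the sham samples. Irf8 kept its call in all alternatives other than positive-control factors alone, where it was -1.18 with an adjusted p of 0.0967.

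Markers of other cells were high at 60 dpi as well. All 7 tested monocyte markers (5 with TMM factors) and all 3 tested endothelial markers were higher than in sham, and the summed endothelial signal was 347.7 to 1062 normalized counts against 179 to 280.2. Neutrophil markers summed to 8797 to 39427, against 232 to 8523 in sham, 666 to 9595 at 2 dpi and 448 to 1243 at 14 dpi. Of 5 tested 1, Ltf, was called against sham, and none with TMM factors. Ltf was above background in 1 of 4 sham samples and 1 of 3 at 60 dpi, and Cxcr2 was not above background. Of 12 genes listed for T cells 2 were above background at 60 dpi, with Cd3e, Cd4 and Cd8a among those that were not. Another of those was Cd3eap, which is not specific to T cells in spite of its name. The sum of the list, Cd3eap included, was 457 to 619 against 177 to 444 in sham. Cd3d, a chain of the T cell receptor complex, was higher by 1.94 ± 0.34 (adjusted p = 0.000201), from a mean of 38.5 to 143 normalized counts. No B cell marker was above background there, and 2 of 6 NK cell markers and 2 of 5 dendritic cell markers were, of which Klrk1 (1.17, adjusted p = 0.0403) and Itgax (1.61, adjusted p = 0.000154) were higher than in sham. Klrk1 was above background in 1 of 4 sham samples and 2 of 3 at 60 dpi, and Itgax in 2 of 4 sham samples. Of the 9 microglia markers Cx3cr1 was lower (-0.52, adjusted p = 0.0218) and Tyrobp higher (0.45, adjusted p = 0.0403), a split of 0 higher and 2 lower with TMM factors, and their sum was 28345 to 37323 against 29764 to 40312 in sham. The part of these markers in the Irf3 and Irf8 values was not tested.

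**Figure D2:**
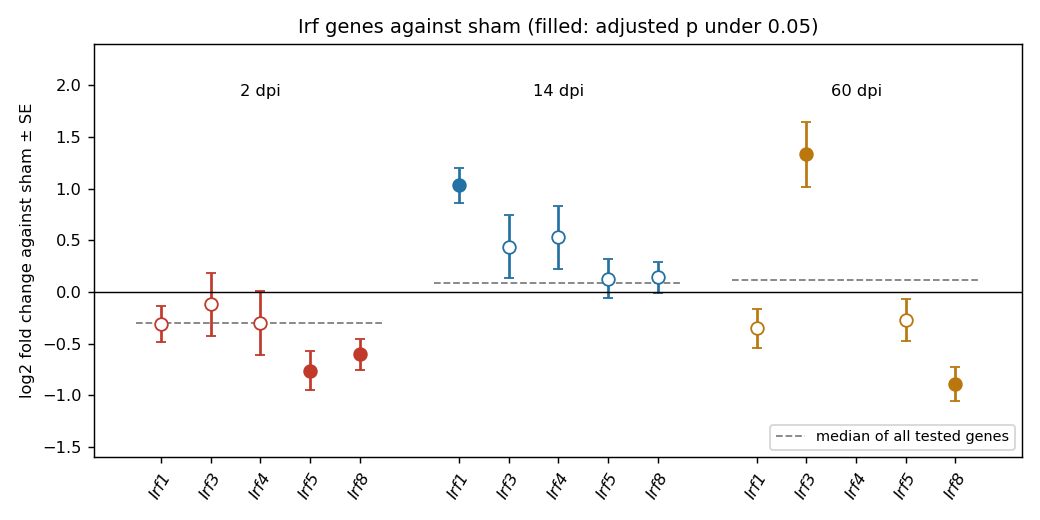
Fitted log2 fold change against sham with its SE for each Irf gene at 2, 14 and 60 dpi; filled points have an adjusted p under 0.05, dashed lines are the median of the 359 tested genes, and Irf4 at 60 dpi is left out because no sample exceeded background. The filled points are Irf5 (-0.76) and Irf8 (-0.60) at 2 dpi, Irf1 (1.03) at 14 dpi, and Irf3 (1.33) and Irf8 (-0.89) at 60 dpi.

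Irf4 was at the limit of detection. It exceeded background in 6 of 15 samples, 2 of 4 in sham, 1 of 4 at 2 dpi, 3 of 4 at 14 dpi and 0 of 3 at 60 dpi. Normalized counts of Irf4 were 29.4, 32.7, 28.3 and 26.5 in sham and 29.3, 32.1, 13.6 and 21.1 at 2 dpi. At 14 dpi they were 24.3, 49.7, 40.7 and 55.7, with 3 samples above and 1 below the sham range. The 60 dpi samples read 45, 46 and 53 raw counts, all under the limit of their run, and give no fold. The differences from sham were -0.30 ± 0.31 at 2 dpi (adjusted p = 0.464) and 0.53 ± 0.31 at 14 dpi (adjusted p = 0.232), which were not detectable at this depth.

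Effects at different times were compared directly, with the same sham samples behind each. From 2 to 14 dpi 4 of 5 Irf genes were higher, beside 42.3% of all tested genes called and 39.6% called higher. The differences on the log2 scale were 1.34 for Irf1 (adjusted p = 2.63e-05), 0.89 for Irf5 (adjusted p = 0.00121), 0.75 for Irf8 (adjusted p = 0.000733) and 0.83 for Irf4 (adjusted p = 0.0377). The Irf4 call was lost in 18 of 22 alternatives and Irf3, at 0.56, was not called (adjusted p = 0.144). The Irf8 call was lost in 3 of 23 alternatives and the Irf5 call in 2 of 23, with smallest changes of 0.289 and 0.417. The median change of all tested genes between these time points was 0.43, and -0.02 with TMM factors. With TMM factors 2 members were called, Irf1 and Irf5 (adjusted p = 0.0462), and Irf8 was not. DESeq2 with its own size factors called 1, Irf1.

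From 14 to 60 dpi 3 of 5 Irf genes were called, beside 44% of all tested genes, with 21.7% higher and 22.3% lower. Irf1 dropped by 1.38 (adjusted p = 1.9e-05) and Irf8 dropped by 1.03 (adjusted p = 8.63e-05), while Irf3 rose by 0.89 (adjusted p = 0.0231). The Irf3 call was lost in 4 of 21 alternatives. Among them were the fits without 14 dpi replicate 1 (0.69, adjusted p = 0.0725) and without 60 dpi replicate 1 (0.70, adjusted p = 0.121). In alternatives that kept all samples the adjusted p reached 0.108. Between 2 and 60 dpi, where 56.3% of all tested genes were called and 46.2% were called higher, Irf3 was 1.45 higher (adjusted p = 0.000887). Irf5 was 0.49 higher at 60 than at 2 dpi with an adjusted p of 0.0484, and lost the call in 12 of 21 alternatives, leaving out 2 dpi replicate 1 (adjusted p = 0.113), 3 (adjusted p = 0.1) or 4 (adjusted p = 0.0917) and 60 dpi replicate 1 (adjusted p = 0.223) or 2 (adjusted p = 0.076) among them. Irf4 also passed in that contrast, but without a 60 dpi sample above background. Irf1 differed by -0.04 between 2 and 60 dpi, with a 95% interval from -0.41 to 0.32.

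The proportions of the Irf genes within a sample do not depend on the scaling. Each gene's raw count was divided by that of Irf8 in the same sample, and groups were compared with sham in 12 two-sided exact permutation tests, none of which was below 0.05 after adjustment. In sham the log2 ratio of Irf1 to Irf8 was -1.42 ± 0.25 (SD, n = 4), and at 14 dpi it was -0.53 ± 0.27 (n = 4), with no overlap. The change of 0.89, or 1.86-fold, had an exact p of 0.0286, the smallest that 4 against 4 samples allow, and 0.137 after adjustment. The log2 ratio of Irf3 to Irf8 was -3.45 ± 0.49 in sham and -1.25 ± 0.22 (n = 3) at 60 dpi, a difference of 2.20 or 4.61-fold. Irf5 exceeded Irf8 by 0.32 ± 0.12 in sham and by 0.93 ± 0.23 at 60 dpi on the same scale. Irf1, Irf3 and Irf5 all had ratios at 60 dpi above every sham sample, each with an exact p of 0.0571, the smallest that 3 against 4 samples allow, and an adjusted p of 0.137. All ratios share the Irf8 count, so the 12 tests are not independent. Irf8 itself fell by 0.89 at 60 dpi, while Irf1 (-0.35) and Irf5 (-0.27) were not higher than sham there. Ratios at 60 dpi also compare nCounter runs.

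At 2 dpi, by contrast, the ratio of Irf5 to Irf8 was 0.17 ± 0.10, a difference of -0.15 from sham with overlapping samples (exact permutation p = 0.114). At 14 dpi that ratio was 0.30 ± 0.27 and differed by -0.02 (exact permutation p = 0.914). The pair had a Pearson correlation of 0.942 over the 12 samples of sham, 2 dpi and 14 dpi, which share a run, and 0.728 over all 15; within a sample both genes were divided by the same scaling factor. Correlation of Irf3 with Irf8 was 0.472 over the same 12 samples and -0.271 over all 15. These describe the samples and carry no test.

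**Figure D3:**
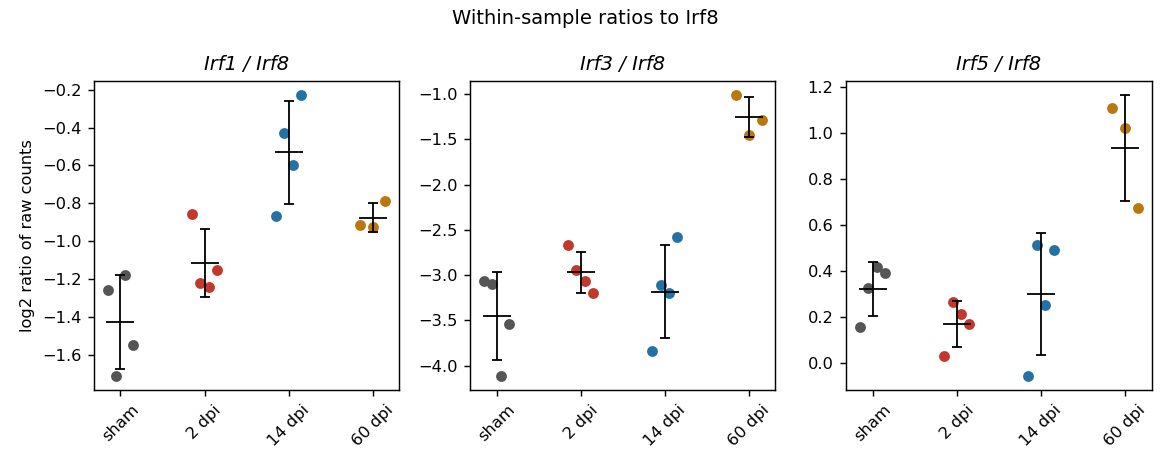
Log2 ratio of the raw counts of Irf1, Irf3 and Irf5 to Irf8 in each sample, by group, with mean and SD; the vertical scales differ between panels. The ratio of Irf1 is highest at 14 dpi (-0.53 on average against -1.42 in sham), and those of Irf3 and Irf5 are highest at 60 dpi (-1.25 and 0.93).

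Some other genes of the panel followed similar courses. By correlation of log2 normalized counts over the 15 samples, the genes closest to Irf1 were Tapbp (0.929), which loads peptides on MHC class I, the chemokine Ccl5 (0.924) and B2m (0.915), the light chain of MHC class I. Closest to Irf8 were Icosl (0.972), Nfkb1 (0.930) and Il21r (0.929), and closest to Irf5 were Pdgfb (0.966), Blnk (0.965) and Il10ra (0.946). For these 9 genes the values without 60 dpi were 0.911 to 0.974. The genes closest to Irf3 were Cxcl11 (0.967), Cd3d (0.954) and Ccl22 (0.949), all of low count, with Cxcl11 above background in 4 samples, and without 60 dpi their values were 0.926, 0.911 and 0.869. Irf4 was closest to Jak2 (0.867), Tollip (0.844) and Cd80 (0.821), at 0.841, 0.817 and 0.809 without 60 dpi. Within a sample all genes share its scaling factor and its background.

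Genes upstream of Irf3 and Irf5 were called lower at 2 dpi about as often as tested genes in general. Of 15 sensors, adaptors and kinases 5 were lower and 1 was higher, beside 28.1% of all tested genes called lower, and the median log2 change of the list was -0.45 against -0.30 for all tested genes. The endosomal receptors Tlr3 and Tlr9, for double-stranded RNA and unmethylated DNA, fell by 0.86 ± 0.19 (adjusted p = 0.00323) and 0.85 ± 0.17 (adjusted p = 0.00205). Tbk1, the kinase that phosphorylates Irf3, fell by 0.64 ± 0.18 (adjusted p = 0.0116) and its relative Ikbke rose by 0.92 ± 0.35 (adjusted p = 0.0456), from a sham level above background in 1 of 4 samples. With TMM factors 2 were lower and 2 higher. At 14 dpi 2 were higher and none lower, beside 21.4% of all tested genes called higher. The 2 were Ikbke, by 1.80, and the RNA sensor Ifih1, by 1.47, and TMM factors added 1 lower. At 60 dpi, the time of the Irf3 rise, 3 were higher, beside 25.1% of all tested genes called higher. The 3 were Ikbke, by 1.70, Ddx58, by 0.61, and Tlr8, which had no sham sample above background. Tbk1 was lower, falling by 1.10 ± 0.20 (adjusted p = 0.000323) from a mean of 165 to 76.5 normalized counts.

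Interferon receptors and their kinases numbered 13 tested genes. At 2 dpi 4 were lower, the receptor chains Ifngr1 (-0.82), Ifnar2 (-0.52) and Ifngr2 and the kinase Jak1 (-0.55), and none was higher, again beside 28.1% of all tested genes called lower, with a list median of -0.47 against -0.30 for all tested genes. With TMM factors 1 was lower and 1 higher. At 14 dpi 2 of 13 were higher, one of them Ifnb1, which exceeded background in no sham sample, and at 60 dpi 3 were higher, among them Ifnar1 (0.69) and Jak2 (0.58). With TMM factors these splits were 2 higher and 2 lower at 14 dpi, and 2 and 1 at 60 dpi. Of all tested genes 21.4% were called higher at 14 dpi and 25.1% at 60 dpi with the main factors. Of 9 tested partners and lineage factors, 5 were lower at 2 dpi, including Batf3 (-0.89), Ikzf2 (-0.85) and Ikzf1 (-0.84), with a list median of -0.66 against the same -0.30, and 3 were lower with TMM factors. At 14 dpi Bcl6 was higher (0.69) and Ikzf1 lower (-0.70), a split of 0 and 2 with TMM factors, and at 60 dpi Cebpb alone was called, lower by 1.11 ± 0.22 on the log2 scale.

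Among target genes of the family, all calls at 14 dpi, when Irf1 was high, were in the higher direction. Over all tested genes 77 of 92 calls were higher there as well, and 21.4% of the tested genes were called higher. Of 11 tested type I interferon targets, 6 were higher and none lower, and the split was 6 to 0 in number with TMM factors too. The median of this list was 0.78 against 0.08 for all tested genes. The largest changes were those of Ccl5 (2.84 ± 0.36, adjusted p = 1.82e-05), Ifi204 (2.10 ± 0.28, adjusted p = 3.47e-05), a sensor of DNA, and Ifit2 (1.84 ± 0.28, adjusted p = 0.000116). In sham Ccl5 was above background in 2 of 4 samples and Ifi204 in 1 of 4. Of 21 tested targets of interferon gamma, Irf1 or Irf8, 11 were higher and none lower, 9 and 0 with TMM factors, with a median of 0.65. With positive-control factors alone 3 of the type I targets and 1 of this second list were higher, and none was lower. In that setting 20 of all 359 tested genes were called higher. B2m rose by 1.50 ± 0.16 (adjusted p = 2.78e-06) from 3504 to 9896 normalized counts, Cd274, which encodes the checkpoint ligand PD-L1, by 1.33 ± 0.22 (adjusted p = 0.000203) and Cybb, a subunit of the phagocyte oxidase, by 1.25 ± 0.36 (adjusted p = 0.0176).

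At 2 dpi the same lists gave 1 higher (Ifitm1, 1.26) and 0 lower among the type I targets, 4 and 0 with TMM factors, and 1 higher (Cd274, 0.68) and 4 lower among the others, Il18 (-0.68), Psmb9 (-0.61), Fcgr1 (-0.58) and Irgm1. None of those 4 was lower with TMM factors, and 28.1% of all tested genes were called lower with the main factors. At 60 dpi 4 type I targets were higher, Ifitm1 (0.94), Ifi35 (0.63), Ddx58 (0.61) and Cxcl11, which was above background in no sham sample. Of all tested genes 25.1% were called higher at 60 dpi and 11.1% lower. Of the other list 9 were higher and 2 lower, led by the MHC class II genes Cd74 (2.77 ± 0.20, adjusted p = 4.59e-09), H2-Eb1 (2.72 ± 0.25, adjusted p = 1.63e-07) and H2-Aa (2.54 ± 0.23, adjusted p = 1.03e-07). Fcgr1, a high-affinity IgG receptor, fell by 0.73 ± 0.17 (adjusted p = 0.00218), and Casp1 was above background in 0 of 3 samples at 60 dpi. Monocyte and endothelial markers were also high there, as given above.

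**Figure D4:**
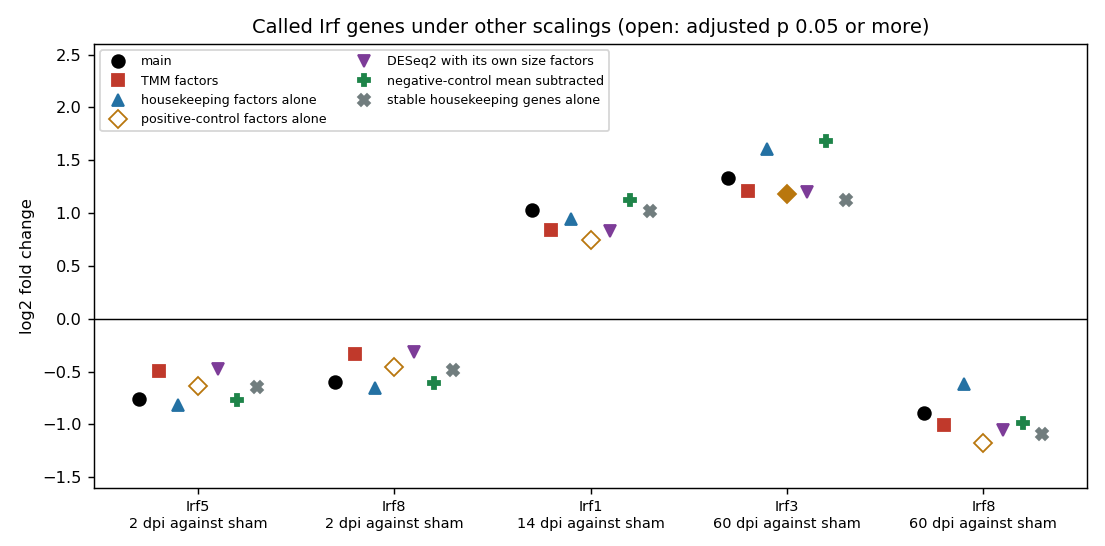
Log2 fold change against sham of the 5 called results under the main fit and 6 other scalings or background treatments; open symbols have an adjusted p of 0.05 or more. Every value keeps its sign, and the open symbols all belong to positive-control factors alone, under which only Irf3 at 60 dpi (1.18) is filled.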

How the data were processed

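RNA of sorted cells was counted on an nCounter mouse panel, called Inflammation v2 in the labels and an immunology code set in the header of the deposited counts (547 endogenous, 14 housekeeping, 6 positive-control and 8 negative-control probes) in 15 samples grouped by the injury label. The authors deposited the raw counts, taken here as estimated counts that were not normalized, and a table of normalized signal that the authors made with NanoStringNorm. All 8205 values of the latter equal the raw count less the negative-control mean, floored at 0, times a housekeeping factor, to within 4.23e-06. The samples of the deposited tables were all used.

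Raw counts were tested by robust quasi-likelihood F tests (edgeR 4.0.16 under R 4.3.3), 1 fit of all samples and 6 contrasts, Benjamini-Hochberg at 0.05. Each sample was scaled by its positive-control factor times the median housekeeping ratio. The methods name NanoStringDiff, which was not run; edgeR is the nearest count test. Genes had to exceed the negative-control mean plus 2 SD in at least 3 samples. No fold is given for a gene with a group in which no sample did. The 95% intervals are normal approximations from the fitted SE. The test was checked on simulated counts. Ratios to Irf8 were compared by exact permutation (SciPy 1.17.1). Alternatives used TMM, single factor sets, DESeq2 1.42.0, limma 3.58.1 with pseudocounts 1 and 10, background subtraction, other filters and each sample left out.

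The 5 genes and the lists were chosen with earlier results of these data known. Named are all 5 members, for each the 3 genes most correlated with it, and up to 3 called genes with the largest change per list and comparison; a few further called genes were named after their values were seen. Probe accessions of all 5 matched the RefSeq table. The qPCR and staining of the study were not analysed here. Counts carry counting error, which weighs most on Irf3 and Irf4, the members with the lowest counts.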

Additional observations from a re-analysis of the deposited data

Results flagged for a closer look

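Of the Irf genes, 9 differences between injured time points, that is, between their effects against the shared sham samples, passed the edgeR test of the difference itself, leaving out Irf4 between 2 and 60 dpi, which passed as well but had no 60 dpi sample above background. From 2 to 14 dpi the log2 differences were 1.34 for Irf1, 0.83 for Irf4, 0.887 for Irf5 and 0.748 for Irf8. From 14 to 60 dpi Irf1 differed by -1.38, Irf3 by 0.894 and Irf8 by -1.03, and between 2 and 60 dpi Irf3 differed by 1.45 and Irf5 by 0.487. Every value that involves 60 dpi also compares nCounter runs, which cannot be told apart from the time point. No sample stood far enough from the other 3 of its group to pass Dixon's test in the 15 gene and group combinations with 4 samples.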

How the results depend on the processing

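The called changes against sham kept their direction in every alternative run. With positive-control factors alone Irf5 (-0.638) and Irf8 (-0.455) at 2 dpi, Irf1 at 14 dpi (0.742) and Irf8 at 60 dpi (-1.18) lost their call, which left 0, 0 and 1 members called at 2, 14 and 60 dpi against sham, and 0, 1 and 0 for 14 against 2, 60 against 14 and 60 against 2 dpi. DESeq2 with its own size factors called 4 members at 60 dpi against sham, with Irf1 at -0.527 and Irf5 at -0.437, and 1 between 14 and 2 dpi. TMM factors gave 2 members there and called Irf1 at 60 dpi (-0.488), as did the housekeeping genes whose group means stayed within 0.7 log2 units of sham (-0.564), an alternative chosen after seeing the data. Between 60 and 2 dpi the count was 1 with the negative-control mean subtracted, with or without NEG_B (the latter chosen after seeing the data), and with the additive background test, and 1 to 3 with a sample left out.

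Uncalled differences that changed sign were Irf3 at 2 dpi, with TMM (0.153), positive-control (0.158) or DESeq2 factors (0.194), background subtraction (0.0843), the additive test (0.139), NEG_B left out (0.128) and a sample left out (-0.29 to 0.136); Irf4 at 2 dpi in limma (0.147); Irf5 at 14 dpi (-0.0577, -0.145 and -0.0572 with TMM, positive-control and DESeq2 factors) and Irf8 at 14 dpi (-0.0266, -0.0335 and -0.0294). Between 60 and 2 dpi Irf1 (0.284) and Irf8 (0.044) did so with housekeeping factors alone, and Irf1 ran from -0.119 to 0.0328 with a sample left out. The ratio of Irf5 to Irf8 at 14 dpi ran from -0.0925 to 0.0967 with a sample left out. That of Irf1 to Irf8 ran from 0.793 to 1.01, with an exact p of 0.0571, the smallest that remaining samples allow, and that of Irf3 to Irf8 at 2 dpi was 0.737 after background subtraction and 0.733 in the authors' normalized values (exact permutation p = 0.0286 for both). The causes were not tested. No paired analysis was possible because the labels give no number that ties samples across groups. Counts of Irf3 and Irf4 near background limit what can be read from them.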
